A study of Mus musculus with 20 samples.

Results

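The genes described here are 9 genes of the growth hormone and IGF1 axis in mouse liver, chosen by name from the 32400 Ensembl genes of the deposited table and all found in it. They are Ghr, Stat5a, Stat5b, Igf1, Igfals, Socs2, Cish, Bcl6 and Hsd3b5, and all 9 passed the filter on low counts. Bulk mRNA was sequenced from livers of C57BL/6NTac mice in 3 groups. The gRNA group (8 libraries) was fed a high-fat, high-fructose diet (HFHF) and received a guide RNA against Flcn carried by AAV8, an adeno-associated virus that favours hepatocytes. The HFHF control group (7 libraries) was on the same diet and was given phosphate-buffered saline as vehicle. The chow control group (5 libraries) ate standard chow and was untreated. The controls thus had no virus and no other guide, so the virus and the Flcn guide cannot be told apart. Chow and HFHF control differed in vehicle as well as in diet. The sources used here do not give the nuclease, the guide's position, the sex or age of the mice, the length of the diet or the time of sampling. No label says that each library came from its own animal, so a p-value measures only how far these libraries spread, which may be technical.

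Growth hormone from the pituitary binds its receptor GHR on hepatocytes, and the kinase JAK2 on the receptor then phosphorylates the transcription factors STAT5A and STAT5B. STAT5 drives Igf1, the growth factor that the liver releases into blood, and Igfals, whose product holds IGF1 and a binding protein in a long-lived complex. It also induces Socs2 and Cish, which encode SH2-domain proteins that damp signalling from the receptor. Growth hormone is secreted in pulses, in male rodents with long quiet intervals, and Cish and Socs2 transcripts follow a pulse quickly. Bcl6 encodes a repressor that binds many of the same sites as STAT5 and is itself repressed by growth hormone. Hsd3b5 encodes a 3-keto steroid reductase of male mouse liver that depends on the male hormone pattern.

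The promoters of Cish, Bcl6 and Igfals are shown. In the values below no gRNA library was high in both Cish and Bcl6, and Igfals had the smallest p of the 9 genes. Of the genes with a promoter window, these are also the only ones that held the motif marked here, so they are not a sample of the members. Sequences run 5′ to 3′ on the gene's own strand, from 250 bases before to 50 after a transcript start, and are taken from RefSeq (GRCm38.p6). Capitals mark TTCNNNGAA, the letters bound by STAT5 and other STAT factors. This motif reads the same on both strands and no match overlapped another.
Cish, chr9:107296409-107296708, plus strand: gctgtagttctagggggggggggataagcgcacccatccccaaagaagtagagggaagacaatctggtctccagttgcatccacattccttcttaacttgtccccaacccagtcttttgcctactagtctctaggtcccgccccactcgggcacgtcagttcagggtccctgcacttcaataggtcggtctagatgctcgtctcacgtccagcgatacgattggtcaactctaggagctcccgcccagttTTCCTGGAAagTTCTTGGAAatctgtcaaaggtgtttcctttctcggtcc
Bcl6, chr16:23981234-23981533, minus strand: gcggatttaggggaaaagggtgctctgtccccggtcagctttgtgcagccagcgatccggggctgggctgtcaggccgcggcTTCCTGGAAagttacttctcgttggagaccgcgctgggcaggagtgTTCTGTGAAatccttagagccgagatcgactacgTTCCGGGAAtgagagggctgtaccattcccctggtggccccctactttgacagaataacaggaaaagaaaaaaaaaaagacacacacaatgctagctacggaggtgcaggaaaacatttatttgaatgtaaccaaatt
Igfals, chr17:24877981-24878280, plus strand: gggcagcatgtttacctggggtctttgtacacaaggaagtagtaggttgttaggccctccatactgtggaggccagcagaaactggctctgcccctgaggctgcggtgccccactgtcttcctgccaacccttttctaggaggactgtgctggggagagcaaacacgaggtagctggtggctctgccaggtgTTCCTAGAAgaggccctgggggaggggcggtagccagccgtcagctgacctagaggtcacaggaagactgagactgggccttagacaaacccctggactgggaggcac
In the Cish window the motif began at positions 1 and 12, where position 1 is the start itself. In the Bcl6 window it began 168, 122 and 88 bases before the start, and in the Igfals window 58 bases before. Of 32851 mouse promoter windows of this length, 8.3% held the motif and 0.457% held it at least 2 times. In all, 14 windows matched 8 of the 9 genes. The Bcl6 window shown is the one of 2 with more matches, and the other held 1. Of the 3 Igfals windows, the one shown and another held 1 match each and the last held none. No window of Ghr, Stat5a, Stat5b, Igf1 or Hsd3b5 held the letters, which says nothing of binding outside these windows. The RefSeq starts are not always those of the gene spans given below. The Hsd3b5 window (98645485 to 98645784) lies outside its span, so the start of the counted gene was not examined. The Bcl6 window with 1 match holds the start of its span. The Bcl6 window shown and those of Cish, Igfals and Igf1 lie inside their spans. A match is a description of the letters and not a site of binding.

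Libraries held 13974379 to 19586576 counts, and levels are given as CPM, counts divided by the library size after TMM scaling and multiplied by 1e+06. Hepatocyte markers were high in every library, with the 7 markers summing to 44384 to 76073 CPM in gRNA, 38938 to 58896 CPM in HFHF control and 68618 to 91725 CPM in chow. The 3 skeletal muscle and 3 adipocyte markers summed to at most 0.427 CPM in any library, with Lep at 0. Xist was at 0 to 0.225 CPM and 4 Y-linked genes summed to 113 to 174 CPM over all libraries, so no library carried the female pattern of these genes. Flcn transcript averaged 17.8 ± 2.40 CPM in gRNA, 20.7 ± 2.98 CPM in HFHF control and 22.2 ± 6.03 CPM in chow (SD, n = 8, 7 and 5). The log2 fold change of gRNA against HFHF control was -0.22 (SE 0.12), which did not pass (edgeR quasi-likelihood test, adjusted p = 0.14). Against chow it was -0.32 (SE 0.13) and was called at the edge of the threshold (adjusted p = 0.04995). That call held in 3 of the 20 fits that left out 1 library and under none of the other scalings, filters, fits or tools tried, and the value was -0.12 without chow replicate 1 (adjusted p = 0.42). The transcript level does not measure editing. The title of gRNA replicate 8 differs in its second field, which all other titles share, and its library number lies outside the run of the others. Without that library the same test called 4, 5 and 4 members in the 3 comparisons, as many as with it.

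The comparison of gRNA with HFHF control asks how the axis differed on this diet after the virus with the Flcn guide. The receptor gene Ghr, the hormone gene Igf1, the complex subunit gene Igfals and the male-pattern gene Hsd3b5 rose with the gRNA, 4 of the 9 members, and none fell. Among all 13667 genes tested, 38.6% were called, 19.6% as higher and 19.0% as lower. With upper-quartile scaling the higher genes were 37.8% of all calls in place of 50.7%, while 4 members were called under both scalings. The median log2 fold change of the 9 members was 0.31, against 0.01 over all tested genes. In Ghr and Igfals the lowest gRNA library exceeded the highest HFHF control library. Of all tested genes 11.0% showed no overlap, 5.04% with gRNA above and 6.01% with gRNA below.

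Ghr (chromosome 15, 3317760 to 3583492, minus strand, GRCm38), which encodes the receptor, had 542, 618 and 667 CPM as the lowest, median and highest gRNA library. HFHF control had 370, 407 and 478 CPM, and the chow libraries 642, 680, 684, 582 and 600 CPM. The highest HFHF control library was below every gRNA library, whereas gRNA and chow overlapped. Ghr averaged 600 ± 44.9 CPM in gRNA and 406 ± 37.1 CPM in HFHF control (SD, n = 8 and 7), a log2 fold change of 0.56 (SE 0.07, edgeR adjusted p = 1.19e-06). The exact two-sided permutation test of log2 CPM gave p = 3.11e-04, the smallest that 6435 regroupings can give.

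Stat5b (chromosome 11, 100780731 to 100850724, minus strand), the main STAT5 of male liver, had 43.5, 47.9 and 61.8 CPM as lowest, median and highest gRNA library. The HFHF control libraries had 37, 40.3 and 48.3 CPM, so the groups overlapped. The log2 fold change was 0.24 (SE 0.10, 95% interval 0.04 to 0.45), with edgeR adjusted p = 0.0516, just over the threshold of 0.05. With only the groups compared in the fit the adjusted p was 0.0259, and over the fits that left out 1 library it ranged from 0.0125 to 0.129. Stat5a (chromosome 11, 100859351 to 100885169, plus strand), its close paralog, had 11.7, 13.7 and 18.8 CPM in gRNA against 13, 14.1 and 18.7 CPM in HFHF control. Its log2 fold change was -0.08 (95% interval -0.37 to 0.21, adjusted p = 0.692). Stat5a and Stat5b share 8.36% and 10.8% of their 51-base windows with other genes, mainly each other. Exons of Stat5a also overlap Stat3 on the other strand, and the use of strand in counting is not known here, so the level of Stat5a is uncertain.

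Igf1 (chromosome 10, 87858265 to 87937042, plus strand) had 446, 511 and 547 CPM as the lowest, median and highest gRNA library, against 321, 387 and 536 CPM in HFHF control. The highest HFHF control library, replicate 2, lay within the gRNA range. Igf1 had a log2 fold change of 0.31 (SE 0.09, edgeR adjusted p = 0.00945). Igfals (chromosome 17, 24865997 to 24882010, plus strand), which encodes the acid-labile subunit, had 24.3, 35.1 and 39.1 CPM in gRNA, against 13.3, 15.3 and 21.6 CPM in HFHF control. Igfals averaged 34.5 ± 4.70 CPM in gRNA and 16.1 ± 3.08 CPM in HFHF control, a log2 fold change of 1.10 (SE 0.11, adjusted p = 8.20e-08). The exact permutation p was 3.11e-04. The 7 hepatocyte markers had 3 higher and 0 lower in this comparison, with a median log2 fold change of 0.22. Serpina1c (0.77), Cps1 (0.59) and Ttr (0.29) were called, and Alb (0.18), Apoa1 (0.16), Tat (0.22) and Hnf4a (0.09) were not. Their part in the results for the members was not tested. In bulk tissue, fewer cells of a type and less RNA per cell cannot be told apart.

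**Figure D1:**
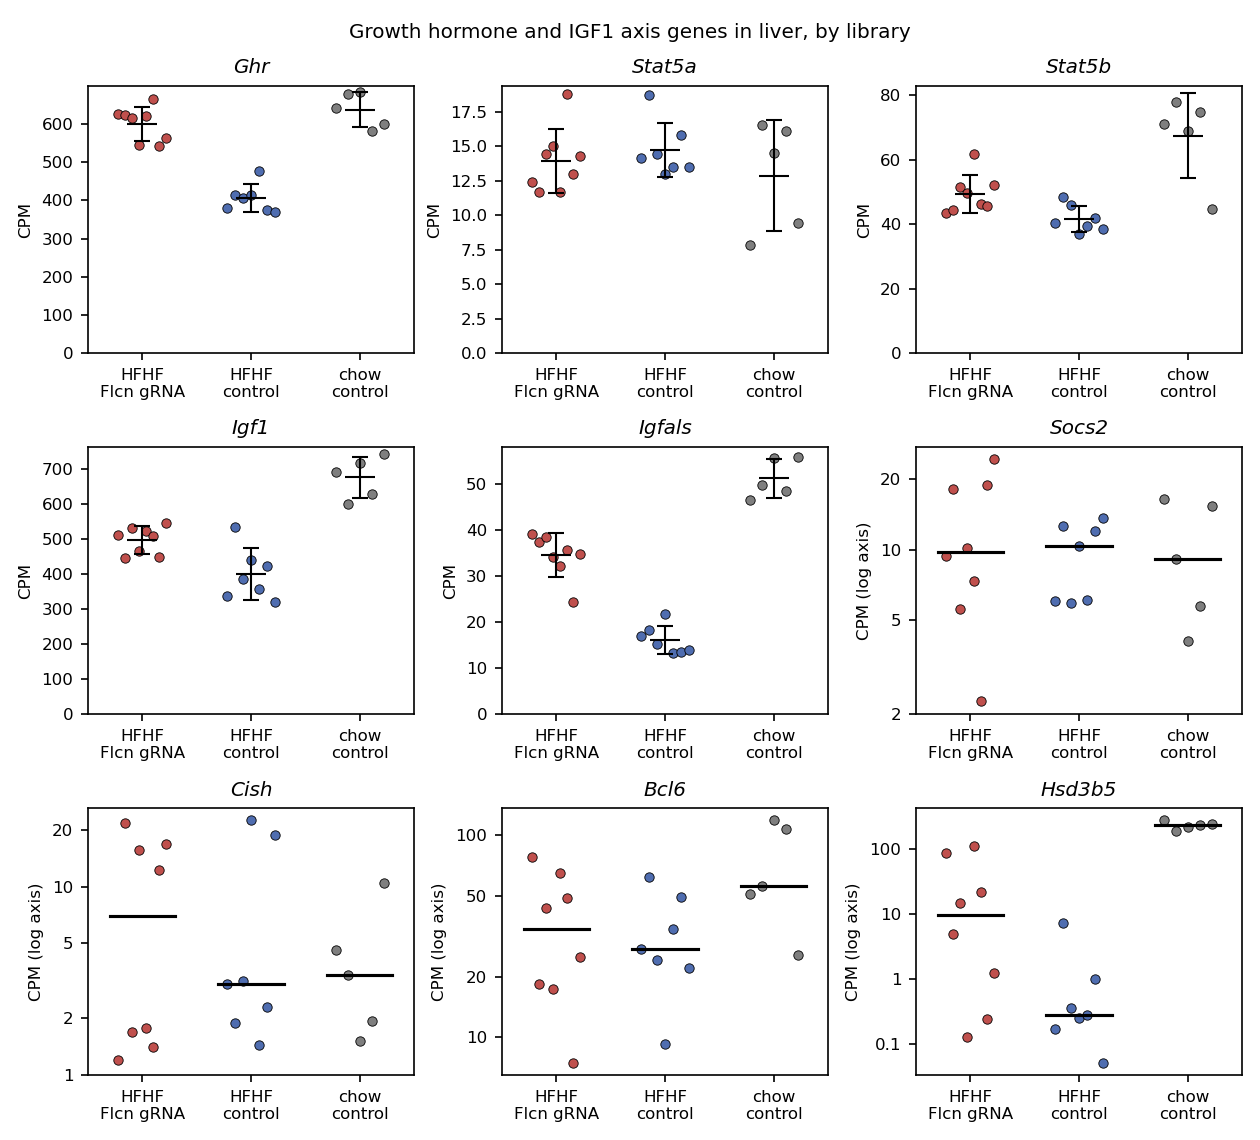
CPM of each of the 9 genes in every library, 1 point per library, for gRNA, HFHF control and chow. Bars are mean ± SD on linear axes, and lines are medians on the log axes of the 4 genes that vary most. Igfals was at 24.3 to 39.1 CPM in gRNA, 13.3 to 21.6 CPM in HFHF control and 46.4 to 55.8 CPM in chow, without overlap, while Cish spanned 1.2 to 21.8 CPM within gRNA.

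The feedback genes and Bcl6 did not pass in the comparison of gRNA with HFHF control, and their libraries spread widely. Socs2 (chromosome 10, 95385362 to 95417180, minus strand), which encodes the suppressor SOCS2, had 2.27, 9.8 and 24.3 CPM as lowest, median and highest gRNA library. The HFHF control libraries had 5.95, 10.4 and 13.7 CPM, inside the gRNA range. Its log2 fold change was 0.32, and the 95% interval of -0.55 to 1.20 allows a change of more than 2-fold upward (adjusted p = 0.575). Cish (chromosome 9, 107296026 to 107302784, plus strand), which encodes the related protein CIS, had 1.2, 7 and 21.8 CPM in gRNA and 1.45, 3.03 and 22.6 CPM in HFHF control. Its log2 fold change of 0.24 had a 95% interval of -1.35 to 1.84 (adjusted p = 0.829), and the value was -0.10 without gRNA replicate 2. Bcl6 (chromosome 16, 23965052 to 23988852, minus strand) had 7.47, 34.4 and 78 CPM in gRNA and 9.23, 27.3 and 62.4 CPM in HFHF control. Its log2 fold change was 0.22 (95% interval -0.80 to 1.23, adjusted p = 0.759), and the value was -0.03 without gRNA replicate 1. A p that misses the threshold does not show that these genes were alike in both groups.

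Hsd3b5 (chromosome 3, 98618634 to 98630252, minus strand) showed the widest range of the 9 genes among the gRNA libraries. Replicates 1 to 8 held 86.5, 4.94, 14.7, 0.129, 112, 21.8, 0.247 and 1.26 CPM. The values in HFHF control replicates 1 to 7 were 0.168, 7.38, 0.362, 0.252, 0.279, 1.01 and 0.0515 CPM. Thus 4 gRNA libraries were above the highest HFHF control library and the other 4 lay within the HFHF control range. The highest gRNA library was 873 times the lowest, and the lowest count of Hsd3b5 in any library was 1. The log2 fold change was 4.55 (SE 1.21, edgeR adjusted p = 0.00632). With limma-voom it was 3.68 and did not pass (adjusted p = 0.203), and the exact permutation p was 0.0376. The value was 6.38 without HFHF control replicate 2 and 3.82 without gRNA replicate 5. Of its 51-base windows, 20.7% also occur in Gm10681, Hsd3b4 and Gm4450, each of which was at no more than 0.149 CPM in any library.

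**Figure D2:**
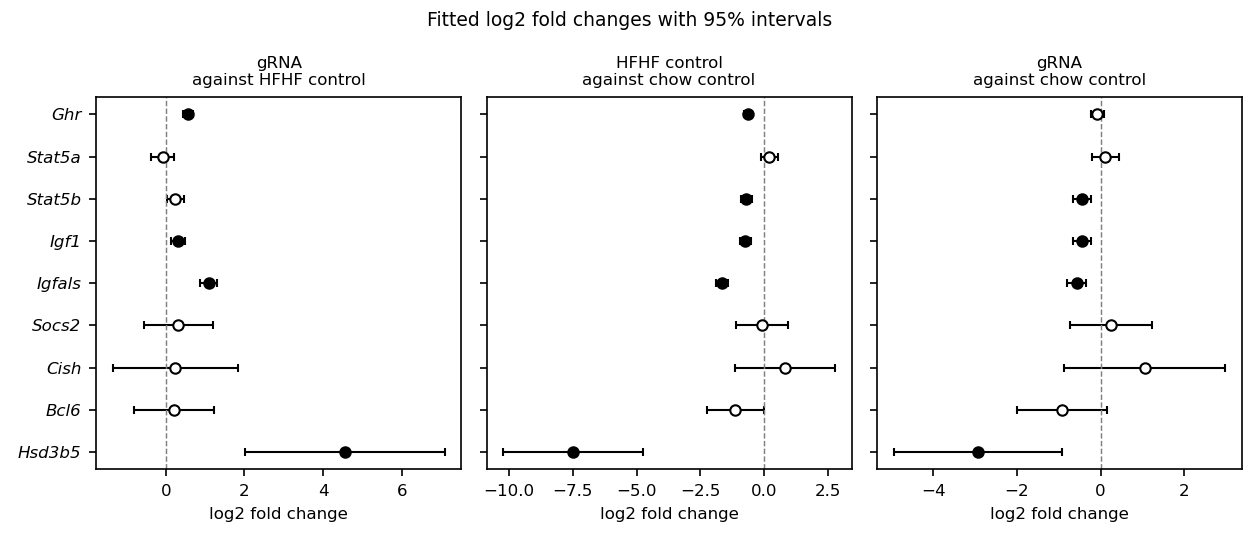
Fitted log2 fold change of each gene with its 95% interval, with 1 panel per comparison: gRNA against HFHF control on the left, HFHF control against chow in the middle and gRNA against chow on the right. Filled points passed at adjusted p under 0.05 and open points did not. Intervals were narrow for Ghr (0.43 to 0.70 in gRNA against HFHF control) and wide for Cish (-1.35 to 1.84). The horizontal scales differ between panels.

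The comparison of HFHF control with chow shows the axis under the diet and vehicle. Ghr, Stat5b, Igf1, Igfals and Hsd3b5 fell on HFHF, 5 of the 9 members, and none rose. Of all genes tested, 57.0% were called, 28.1% as higher and 28.9% as lower. With upper-quartile scaling 60.7% of all calls were higher in place of 49.4%, while 5 members were called under both. The median log2 fold change was -0.70 for the members and -0.01 for all genes. In Ghr, Igf1, Igfals and Hsd3b5 the highest HFHF control library was below the lowest chow library. Of all tested genes 37.0% showed no overlap, 18.8% with HFHF control above and 18.1% with HFHF control below.

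Igfals averaged 16.1 ± 3.08 CPM in HFHF control and 51.1 ± 4.28 CPM in chow (SD, n = 7 and 5), where the libraries held 46.4, 49.6, 55.5, 48.3 and 55.8 CPM. The level in HFHF control was 3.17-fold lower (log2 fold change -1.67, SE 0.12, edgeR adjusted p = 2.79e-10). Igf1 averaged 401 ± 73.8 CPM in HFHF control and 677 ± 59.3 CPM in chow, with chow libraries at 693, 602, 718, 630 and 743 CPM. For Igf1 the log2 fold change was -0.76 (SE 0.10, adjusted p = 1.85e-06). For Ghr the log2 fold change was -0.65 (SE 0.08, adjusted p = 2.20e-07). The Stat5b libraries of chow held 71.2, 77.9, 68.8, 74.8 and 44.7 CPM, and the last of these lay within the HFHF control range of 37 to 48.3 CPM. Stat5b fell by 0.70 on the log2 scale (SE 0.11, adjusted p = 1.18e-05), while Stat5a was at 0.19 (95% interval -0.14 to 0.52, adjusted p = 0.319) with chow libraries at 7.8, 16.5, 14.5, 16.1 and 9.41 CPM. Among hepatocyte markers 6 of 7 fell, with a median of -0.58 on the log2 scale, and their part in these results was not tested. All 6 stellate markers rose, and their summed level was 449 to 653 CPM in HFHF control and 133 to 168 CPM in chow.

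Hsd3b5 was at 277, 190, 214, 233 and 238 CPM in the chow libraries, which differed by at most 1.46-fold from each other. HFHF control libraries were all at or under 7.38 CPM. The log2 fold change was -7.49 (SE 1.30, edgeR adjusted p = 1.01e-04), and it was -9.31 without HFHF control replicate 2. The exact permutation p was 0.00253, the smallest that 792 regroupings can give. Bcl6 had 51.4, 56.4, 119, 107 and 25.7 CPM in chow and did not pass (log2 fold change -1.14, 95% interval -2.26 to -0.02, adjusted p = 0.0772). Without HFHF control replicate 2 the value was -1.37 (adjusted p = 0.0429), and without chow replicate 5 it was -1.33 (adjusted p = 0.0474). Socs2 had 16.4, 9.16, 4.09, 5.79 and 15.3 CPM in chow and Cish 4.63, 3.39, 1.51, 1.93 and 10.4 CPM. Their log2 fold changes of HFHF control against chow were -0.08 (95% interval -1.09 to 0.92) and 0.81 (95% interval -1.14 to 2.77). The sign for Socs2 depended on the setting: it was 0.01 with upper-quartile scaling, 0.02 with limma-voom and 0.19 without chow replicate 1.

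Set directly against chow, the gRNA group was lower in Stat5b, Igf1, Igfals and Hsd3b5, 4 of the 9 members. Of all tested genes 42.6% were called in this comparison, 20.9% as higher and 21.7% as lower, and the medians were -0.44 for the members and 0.00 for all genes. In Igf1, Igfals and Hsd3b5 the highest gRNA library was below the lowest chow library. Of all tested genes 18.0% showed no overlap, 9.01% with gRNA above and 8.98% with gRNA below. The comparison shares its gRNA libraries with the comparison with HFHF control and its chow libraries with the comparison of the diets, so the values are given for each and not as independent results. Igfals was at -0.57 (SE 0.11, edgeR adjusted p = 2.74e-04), Igf1 at -0.44 (SE 0.10, adjusted p = 0.00111) and Stat5b at -0.45 (SE 0.11, adjusted p = 0.00157). Hsd3b5 was at -2.94 (SE 0.96, adjusted p = 0.0199), with values of -3.64 without gRNA replicate 5 and -5.36 with limma-voom. Ghr did not pass, with a log2 fold change of -0.09 whose 95% interval of -0.24 to 0.07 is narrow (adjusted p = 0.357). In this comparison 5 of 7 hepatocyte markers fell, with a median log2 fold change of -0.40, and 5 of 6 stellate markers rose, with a median of 0.73. Their part in the results for the members was not tested. The wide intervals of Cish (-0.87 to 2.98), Socs2 (-0.74 to 1.22) and Bcl6 (-2.01 to 0.16) allow changes of more than 2-fold.

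The members differed in spread, without a clean split into classes. The coefficient of variation over the 8 gRNA libraries was 7.49% for Ghr, 7.86% for Igf1, 12.1% for Stat5b, 13.6% for Igfals and 16.9% for Stat5a. It was 63.2% for Socs2, 66% for Bcl6, 93.5% for Cish and 145% for Hsd3b5. In chow it was 7.25% for Ghr, 19.5% for Stat5b and 31.1% for Stat5a. It was 54.4% for Socs2, 82.2% for Cish and 55.1% for Bcl6 there, but 13.9% for Hsd3b5. In HFHF control it was 18.4% for Igf1, 19.1% for Igfals, 35.7% for Socs2 and 54.8% for Bcl6. It was 119% for Cish and 197% for Hsd3b5 there. Cish, Socs2 and Bcl6 varied in all groups, and Hsd3b5 varied widely within both HFHF-fed groups. Hormone levels are not part of these data, so a link of this spread to hormone pulses was not tested.

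Bcl6 was low in the libraries in which Cish was high, although the order was not strictly opposite within gRNA or HFHF control. In gRNA the library with 1.2 CPM of Cish held 78 CPM of Bcl6 and 86.5 CPM of Hsd3b5. The libraries with 1.4, 1.7 and 1.77 CPM of Cish held 48.8, 43.9 and 65 CPM of Bcl6 and 21.8, 14.7 and 112 CPM of Hsd3b5. The remaining 4, with 12.2, 15.7, 16.8 and 21.8 CPM of Cish, held 7.47, 17.3, 24.9 and 18.3 CPM of Bcl6 and 0.247, 0.129, 1.26 and 4.94 CPM of Hsd3b5. No gRNA library was high in both Cish and Bcl6, and none lay between 1.77 and 12.2 CPM of Cish. In HFHF control the libraries with 22.6 and 18.8 CPM of Cish were the lowest in Bcl6, at 9.23 and 22.1 CPM, and the other 5 had 1.45 to 3.16 CPM of Cish and 24.2 to 62.4 CPM of Bcl6. The 5 chow libraries in order of rising Cish, from 1.51 to 10.4 CPM, held 119, 107, 56.4, 51.4 and 25.7 CPM of Bcl6, a falling order without exception. Hsd3b5 in the same chow libraries was 214, 233, 190, 277 and 238 CPM, with no such order. In HFHF control, again by rising Cish, Hsd3b5 was 0.279, 7.38, 1.01, 0.168, 0.362, 0.0515 and 0.252 CPM.

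These orders were noticed in the values and are a description, with no test. Cish values fell into separate clusters with fewer than 6 libraries in each, so a correlation of Cish with Socs2 cannot be tested within them. In order of rising Cish, Socs2 in the 8 gRNA libraries was at 9.45, 2.27, 5.57, 7.35, 18.9, 10.2, 24.3 and 18.1 CPM. In the same order it was at 6.14, 12.6, 12, 6.06, 5.95, 13.7 and 10.4 CPM in HFHF control. In chow it was at 4.09, 5.79, 9.16, 16.4 and 15.3 CPM. The capitals in the Cish, Bcl6 and Igfals windows above mark TTCNNNGAA by definition, so that they all match is no result. The windows printed were picked, so the 8.3% over all promoter windows is not a rate to set against them. In full letters the Cish and Bcl6 windows share only TTCCTGGAA. Whether the motif bears on these orders was not tested.

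**Figure D3:**
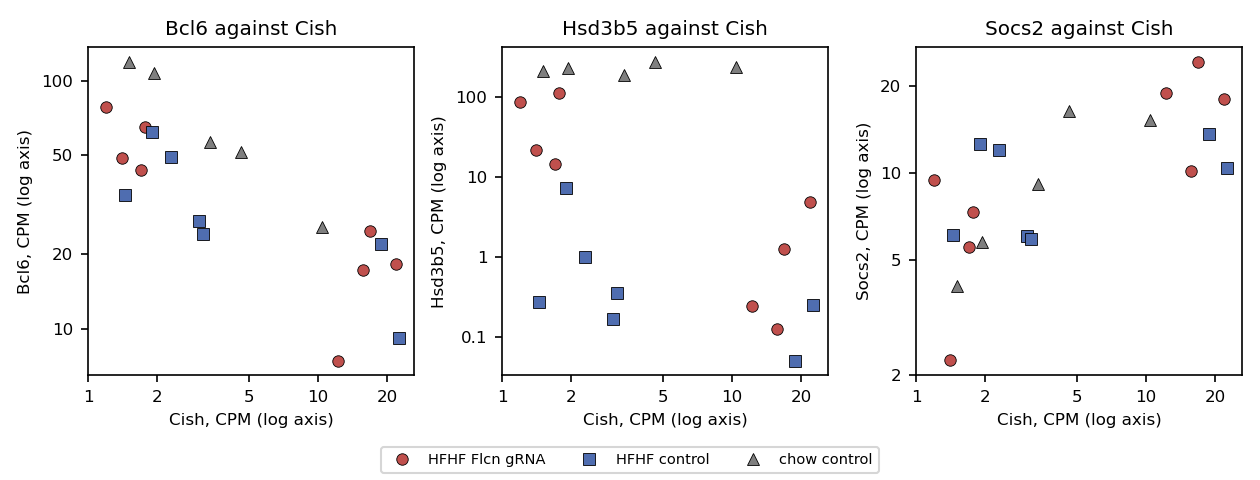
Bcl6, Hsd3b5 and Socs2 against Cish, all in CPM on log axes, with 1 point per library in gRNA (circles), HFHF control (squares) and chow (triangles). In each group the libraries with the most Cish were among the lower ones in Bcl6. Hsd3b5 stayed at 190 to 277 CPM over all chow values of Cish and ranged from 0.129 to 112 CPM in gRNA.

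Other pairs of members were correlated within groups on log2 CPM, 6 relations in all, and no relation passed after adjustment. In gRNA, however, Hsd3b5 and Bcl6 split into the same sets of libraries as Cish. Hsd3b5 was at 14.7 to 112 CPM where Cish was low and at 0.129 to 4.94 CPM elsewhere. Bcl6 was at 43.9 to 78 CPM and 7.47 to 24.9 CPM in the same sets. Correlations of these genes in gRNA therefore span that split and do not measure co-variation within a cluster. Hsd3b5 and Igf1 in HFHF control had Pearson r = 0.89 (exact permutation p = 0.0127, adjusted p = 0.0762) and Spearman rho = 0.79 (exact permutation p = 0.048, adjusted p = 0.288, n = 7). Leaving out the 2 libraries farthest from the median of Hsd3b5 gave r = 0.69. Hsd3b5 in HFHF control was near the floor, at 0.0515 to 1.01 CPM except in replicate 2 at 7.38 CPM. That replicate also had the highest Igf1 of its group, at 536 CPM. The r of 0.89 thus leans on 1 library and, at such low counts, on the prior count of 2. In gRNA the same pair had r = 0.53 (exact permutation p = 0.178) and rho = 0.36 (exact permutation p = 0.389), with r = 0.05 without the 2 farthest libraries and r = 0.77 without gRNA replicate 8 (exact permutation, adjusted p = 0.197). Igf1 and Igfals had r = 0.43 (exact permutation p = 0.369) and rho = 0.19 (exact permutation p = 0.665) in gRNA, and r = 0.52 (exact permutation p = 0.256) and rho = 0.50 (exact permutation p = 0.267) in HFHF control. Bcl6 and Socs2 had r = -0.61 (exact permutation p = 0.0977) and rho = -0.62 (exact permutation p = 0.115) in gRNA, against r = 0.11 (exact permutation p = 0.831) and rho = 0.14 (exact permutation p = 0.783) in HFHF control. Adjusted over the 6 relations, these other 5 had exact permutation p of 0.293 to 0.831 for Pearson's r and 0.345 to 0.783 for Spearman's rho. Without the 2 libraries farthest from the median of the first gene, r was 0.15 in gRNA and 0.33 in HFHF control for Igf1 with Igfals, and -0.67 in gRNA and 0.17 in HFHF control for Bcl6 with Socs2.

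Levels between genes were compared as the group mean of CPM per kilobase of exon. In gRNA Ghr was highest at 66.3, followed by Igf1 at 50.3, Hsd3b5 at 19.5, Igfals at 10.9, Stat5b at 8.9, Bcl6 at 5.67, Stat5a at 1.95, Cish at 1.41 and Socs2 at 1.26 CPM per kilobase. The place of Hsd3b5 rests on its mean of 30.2 CPM. Its gRNA libraries ranged from 0.129 to 112 CPM with a median of only 9.81 CPM, so its rank in gRNA is uncertain. HFHF control began with Ghr at 44.8 and Igf1 at 40.5 CPM per kilobase and ended with Hsd3b5 at 0.877. In chow Hsd3b5 led with 149 CPM per kilobase, ahead of Ghr at 70.4 and Igf1 at 68.4, which lay within each other's spread. Stat5b stood above Stat5a on this scale in all 3 groups, at 8.9 against 1.95 in gRNA, 7.52 against 2.06 in HFHF control and 12.2 against 1.8 CPM per kilobase in chow.

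Genes of signalling below the receptor moved in both directions. Counts for this list and those that follow stand beside the shares over all tested genes. In gRNA against HFHF control 38.6% were called, 19.6% as higher and 19.0% as lower. In HFHF control against chow 57.0% were called, 28.1% as higher and 28.9% as lower. In gRNA against chow 42.6% were called, 20.9% as higher and 21.7% as lower. Of 13 listed, 12 were tested, and with the gRNA 1 rose and 3 fell against HFHF control (median log2 fold change -0.07, against 0.01 for all genes). Ptpn6, which encodes the phosphatase SHP-1 that acts on JAK2, fell to 16.4 ± 2.02 CPM in gRNA, against 21.2 ± 1.77 CPM in HFHF control (log2 fold change -0.37, SE 0.08, edgeR adjusted p = 5.34e-04). Ptpn1, which encodes the phosphatase PTP1B, was at -0.34 (SE 0.09, adjusted p = 0.00621). Irs2, an insulin receptor substrate, rose by 0.66 (SE 0.25, adjusted p = 0.0445). Jak2 itself did not pass in any of the 3 comparisons, with values of -0.05, 0.12 and 0.07. On HFHF control against chow 3 of the 12 rose and 5 fell (median 0.00, against -0.01 for all genes). Ptpn6 was higher (0.42), and Stat3 and Irs1 were lower (-0.46 and -0.83). In gRNA against chow 0 rose and 5 fell (median -0.06, against 0.00), among them Stat3 (-0.56), Irs1 (-0.74), Irs2 (-0.78) and the adaptor gene Sh2b1 (-0.18).

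Among other IGF system genes, 9 of 14 were tested, and 3 rose and 3 fell with the gRNA against HFHF control (median -0.32). Igfbp2, a circulating binding protein of IGFs, averaged 116 ± 50.5 CPM in gRNA and 59.9 ± 12.3 CPM in HFHF control (log2 fold change 0.96, SE 0.25, adjusted p = 0.00551). Igfbp7 fell to 37.8 ± 5.51 CPM in gRNA, against 76.3 ± 16.9 CPM in HFHF control (log2 fold change -1.01, SE 0.11, adjusted p = 6.32e-07), and Igfbp5 was at -1.13 (SE 0.26). Insr, the insulin receptor gene, rose by 0.29 (SE 0.06, adjusted p = 4.03e-04). Stellate cell markers, of which 5 of 6 fell with the gRNA, summed to 185 to 280 CPM in gRNA and 449 to 653 CPM in HFHF control, and their part in the values of Igfbp7 and Igfbp5 was not tested. On HFHF control against chow 4 rose and 3 fell (median 0.16), with Igfbp7 at 1.51, Igfbp3, which encodes the main partner of IGF1 and the acid-labile subunit, at 1.16, Igfbp2 at -2.10 and Insr at -0.65. In gRNA against chow 2 rose and 3 fell (median -0.05), with Igfbp3 at 0.84, Igfbp7 at 0.50, Igfbp2 at -1.14 and Insr at -0.35.

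Of 10 other liver genes known to respond to growth hormone or STAT5, 2 rose and 2 fell with the gRNA against HFHF control (median 0.23). The list was not sorted by the direction of that response, so its counts and medians do not measure the activity of the hormone or of STAT5. Prlr, the prolactin receptor gene, rose to 72.5 ± 9.03 CPM in gRNA, against 35.1 ± 10.1 CPM in HFHF control (log2 fold change 1.05, SE 0.16, edgeR adjusted p = 5.20e-05). Ppargc1a, a coactivator of mitochondrial genes, was at 1.37 (SE 0.20), the cell cycle inhibitor gene Cdkn1a at -1.48 (SE 0.26) and the hormone gene Fgf21 at -1.10 (SE 0.25). On HFHF control against chow 6 rose and 2 fell (median 0.82). Those named by the smallest p were Prlr at -1.82, Fgf21 at 3.93, Cdkn1a at 2.43 and Cd36, the fatty acid transporter gene, at 1.92. In gRNA against chow 7 rose and 2 fell (median 0.99), with Cd36 at 2.44, Fgf21 at 2.83, the leptin receptor gene Lepr at 1.42 and the nuclear receptor gene Pparg at 0.98.

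Male-biased liver genes, a class set by the male hormone pattern, had 7 of 16 tested members higher and 0 lower with the gRNA against HFHF control (median 0.76). Of all tested genes 38.6% were called in that comparison, 19.6% as higher and 19.0% as lower. Nudt7, a coenzyme A diphosphatase of peroxisomes, rose to 283 ± 64 CPM in gRNA, against 138 ± 43.5 CPM in HFHF control (log2 fold change 1.03, SE 0.18). The cytochrome P450 genes Cyp2d9 and Cyp2u1 were at 0.71 (SE 0.15) and 0.85 (SE 0.20), and the glucuronosyltransferase gene Ugt2b1 at 0.76 (SE 0.18). On HFHF control against chow 0 rose and 14 fell (median -2.07), among them Nudt7 (-2.01), the complement regulator gene Susd4 (-3.32), the oxysterol hydroxylase gene Cyp7b1 (-2.90) and Ugt2b1 (-1.34). In gRNA against chow 0 rose and 9 fell (median -1.09), with Susd4 at -2.37, Cyp7b1 at -2.17, Ugt2b38 at -3.02 and Nudt7 at -0.97. Cyp2d9, Ugt2b1 and Ugt2b38 belong to families of near-identical genes whose reads may be split, so their values are uncertain. This list holds genes that behave like Hsd3b5 by the choice of class, and it was compiled with earlier results of these data known.

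Female-biased liver genes, which male livers normally hold low, had 2 of 11 tested members higher and 1 lower with the gRNA against HFHF control (median 0.19). Sult1e1, the oestrogen sulfotransferase gene, averaged 14.6 ± 11.2 CPM in gRNA and 2.52 ± 1.29 CPM in HFHF control (log2 fold change 2.52, SE 0.49, edgeR adjusted p = 5.20e-04). Cyp2a4 was at -1.86 (SE 0.66, adjusted p = 0.0338) and Cyp3a41b at 0.67 (SE 0.24, adjusted p = 0.0329), and reads of both can be shared with paralogs. On HFHF control against chow 6 rose and 0 fell (median 1.34), with Sult1e1 at 3.92, Cyp2a4 at 4.32, the peroxisomal transporter gene Abcd2 at 2.57 and Fmo2 at 0.94. In gRNA against chow 4 rose and 0 fell (median 1.65), with Sult1e1 at 6.44, Abcd2 at 2.30, Fmo2 at 1.06 and Cyp2b13 at 3.54. Of the 4 tested sex chromosome genes 2 rose and 0 fell with the gRNA against HFHF control (median 0.23), Kdm5d by 0.47 and Uty by 0.31. On HFHF control against chow 0 rose and 3 fell (median -0.39), and in gRNA against chow 0 rose and 1 fell (median -0.17).

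**Figure D4:**
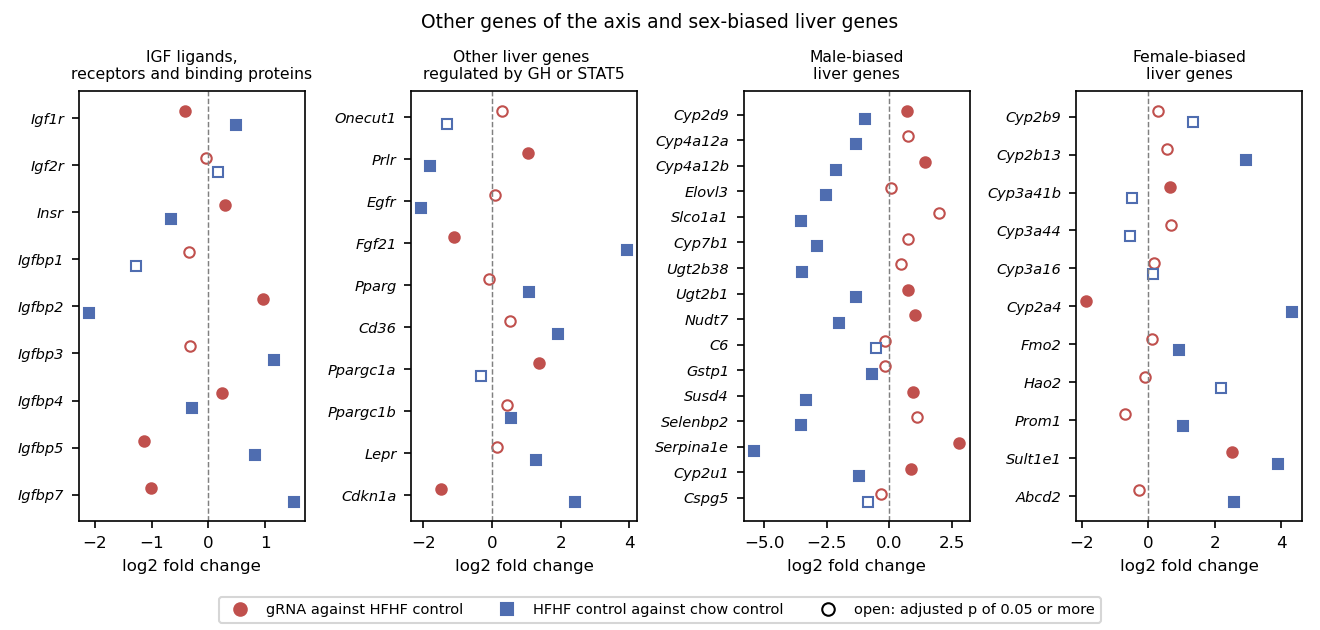
Log2 fold changes of other genes of the axis and of sex-biased liver genes, for gRNA against HFHF control (circles) and HFHF control against chow (squares), with open symbols where the adjusted p was 0.05 or more. Both sets of values share the HFHF control libraries. In the male-biased panel the 14 calls of HFHF control against chow lie left of 0 and the 7 calls of gRNA against HFHF control lie right of 0.

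The genes whose pattern was most like a member were sought among all tested genes by the root mean square difference of standardized log2 CPM over the 20 libraries. For Igf1 they were Senp5 (0.283), Nudt7 (0.324) and Mfsd14a (0.329), where the median over all other genes was 1.37. For Hsd3b5 they were Serpina1e (0.211), C8b (0.226) and AC127342.1 (0.228), against a median of 1.39. Serpina1e and Nudt7 are in the male-biased list. For Socs2 the nearest genes were less close, with Gm17655 at 0.707, Arid5a at 0.738 and Dnph1 at 0.74. These distances are a description over libraries of 3 groups and carry no test.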

How the data were processed

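Liver RNA was measured by single-end mRNA sequencing of 51 cycles, per the labels' protocols. The authors deposited 1 table of expected counts, estimates of the reads per gene, many of them not whole numbers (77.8% of the deposited values of at least 1 were whole within 1e-06). The genome build was GRCm38 per the submitters' processing notes. The sources used here do not give the aligner, the counter, or whether strand and the adapters' molecular identifiers were used, so copies from amplification may be counted as reads of their own.

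Of 32422 features, 22 constructs with 2.2e-06% of the counts were left out. Gene names came from GENCODE mouse release M21 (32325 genes matched, 75 did not). No label matched 1 column, which stayed out. Groups follow diet and treatment in the labels. Replicates are numbered by accession, which pairs nothing.

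Values were rounded to the nearest whole number. filterByExpr left 13667 genes, library sizes were scaled by TMM, and all 3 groups entered 1 edgeR quasi-likelihood fit (edgeR 4.0.16, limma 3.58.1 and R 4.3.3, robust, 17 residual degrees of freedom, common biological coefficient of variation 0.164). The fit was also run on simulated counts in which every gene had that coefficient of variation. The widely spread members lie outside that setting, so the simulation does not cover them. Fold changes are log2 values of the group named first over that named second. Adjusted p-values are Benjamini-Hochberg values over all tested genes, with a threshold of 0.05. Exact two-sided permutation tests over libraries used log2 CPM with a prior count of 2. Alternatives were other scalings, no low-count filter, fits of the groups compared, DESeq2 1.42.0, limma-voom, and each library left out in turn.

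The members and gene lists were chosen with earlier results of these data known. The text names all 9 members, up to 4 genes of smallest p per list and comparison, and the 3 genes nearest in pattern to Igf1, Socs2 and Hsd3b5. Jak2, the hepatocyte markers and Flcn were named besides, and not every gene that the rule names is described.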

Additional observations from a re-analysis of the deposited data

Results flagged for a closer look

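In 6 of 27 sets of libraries, a member and a group each, 1 library lay far from the rest of its group by Dixon's test, which flags about 1 in 20 sets by chance. Ghr was at 478 CPM in HFHF control replicate 5. Stat5a was at 18.8 CPM in gRNA replicate 6, and Stat5b at 61.8 CPM in gRNA replicate 5. Stat5b was at 44.7 CPM in chow control replicate 5, below the other 4 chow libraries at 68.8 to 77.9 CPM. Igfals was at 24.3 CPM in gRNA replicate 7, still above the highest HFHF control library at 21.6 CPM. Hsd3b5 was at 7.38 CPM in HFHF control replicate 2, the library that also had the highest Igf1 of its group at 536 CPM. The flagged libraries were different for each gene. Why these libraries stood apart was not tested.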

How the results depend on the processing

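Of 729 recomputed log2 fold changes of the members, 709 kept their direction and their side of the threshold, 10 changed sign, 9 passed where the value reported did not, and 1 lost its call. The exact permutation test is among these settings, and its unadjusted p was set against the same threshold as adjusted p elsewhere. By it Stat5b passed in gRNA against HFHF control (exact permutation p = 0.0087). The lost call was that of Hsd3b5 in gRNA against HFHF control with limma-voom (3.68, adjusted p = 0.203). Socs2 in HFHF control against chow control changed sign with upper-quartile scaling (0.01), limma-voom (0.02) and as a difference of mean log2 CPM (0.02), and ranged from -0.25 to 0.19 when 1 library was left out. Over the same fits Cish in gRNA against HFHF control ranged from -0.10 to 0.82, and Bcl6 from -0.03 to 0.45. None of these members was called there, and the cause was not tested. The count of members called in gRNA against HFHF control was 3 with limma-voom and 5 with only the groups compared, against 4. With 1 library left out, 4 to 5 members were called in gRNA against HFHF control, 5 to 6 in HFHF control against chow control and 4 in gRNA against chow control. The genes called ranged from 4632 to 5330, from 7204 to 7867 and from 5152 to 5921. The correlation of Cish with Socs2 was not run, since Cish fell into clusters of fewer than 6 libraries. No paired analysis was possible because the replicate numbers were given in accession order. The number of libraries limits what can be said of Cish, Socs2 and Bcl6, whose intervals span more than 2-fold.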
